A study of Mus musculus with 16 samples.

Results

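A set of 8 genes of epithelial filaments and of the cornified envelope were followed through mouse livers and liver tumours: the keratins Krt8, Krt18, Krt20, Krt23 and Krt80, the envelope precursors Sprr1a and Scel, and the surface protein gene Ly6d. These 8 were taken by symbol from the 55291 genes of the count table. Krt20, Sprr1a, Scel and Ly6d were chosen for their rises in these same libraries, so their levels are given as a description with no test. The remaining 4, Krt8, Krt18, Krt23 and Krt80, were listed as keratins and were tested. The set was proposed under the name of ectopic keratins and cornified envelope genes. That name holds for only some of it: Krt8 and Krt18 were abundant in WT liver, and neither Krt23 nor Krt80 was called higher than in WT liver in any group.

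The study sequenced polyadenylated RNA from whole liver and isolated liver tumours, with 16 libraries in 8 groups of 2 biological replicates. Arid1a and Arid1b are mutually exclusive subunits of BAF, a SWI/SNF complex that remodels chromatin. The vehicle (DMSO) groups were WT, Arid1a KO and Arid1a/b DKO livers 9 days after tamoxifen, and WT and Arid1a KO livers at 30 days. A further pair of groups, WT and Arid1a KO, received an agonist labelled NR1L3 agonist; their characteristics give 30 days, although the titles of the WT agonist livers give 9 days, and 30 days was used. The tumours carry the genotype Arid1a KO/BcatEXON, with no time or treatment in the labels, so every comparison of tumour with liver also compares unmatched times and treatments. The sources used here name no Cre driver and no age or sex of the mice; the count table calls the WT livers ALB_WT, a prefix that is not explained. No group of tumour-free livers with the BcatEXON allele was analysed here.

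Total counts ran from 7569779 to 47768610 per library, and replicate 1 was the shallower library in all 8 groups. Levels are counts multiplied by 1e6 and divided by the library total (CPM), with totals scaled by the trimmed mean of M-values (TMM), and levels compared between genes are CPM per kilobase of merged exons. Hepatocytes are the labelled cell type, although whole liver was taken. The 15 hepatocyte markers found in the table summed to 25500 to 59100 CPM, lowest in the double-knockout livers, and markers of macrophages, stellate cells, bile duct and mesothelium were detected as well. In bulk tissue, fewer cells of a type and less RNA per cell cannot be told apart. The first tumour library, the shallowest, had counts in 48 of 53 keratin genes against 10 to 24 in the other libraries, mostly at a few counts per gene.

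Keratins build intermediate filaments as obligate pairs of 1 type I and 1 type II protein. Hepatocytes use the pair of Krt8 (type II) and Krt18 (type I), whereas bile duct cells add Krt7 and Krt19. Krt20 is a type I keratin of gut epithelium, urothelial umbrella cells and Merkel cells. The cornified envelope is the cross-linked protein shell of the outermost keratinocytes, made when transglutaminases join precursors such as small proline-rich proteins and sciellin.

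The genes lie on 4 chromosomes (GRCm38, GENCODE M21, all protein coding). Krt8 (chr15:101996698-102004482, minus strand) and Krt18 (chr15:102028180-102032027, plus strand) are neighbours, 23698 bases apart. Krt80 (chr15:101347444-101370162) and Ly6d (chr15:74762056-74763620) are on the minus strand of the same chromosome. Krt20 (chr11:99428403-99438150) and Krt23 (chr11:99477974-99493137), both on the minus strand, are also neighbours, 39824 bases apart. Scel is at chr14:103513342-103612797 on the plus strand and Sprr1a at chr3:92483952-92485895 on the minus strand, within a run of Sprr genes. Exons of Krt8 overlap the lincRNA Gm36026 on the opposite strand, and exons of Krt80 overlap the antisense gene Gm35853. The strand setting of the counting is not given, so reads of those overlaps cannot be assigned to one strand.

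The upstream sequences of the 3 genes that were nearest to absent in WT liver and highest in the altered livers are shown to display which short motifs stand beside their starts. They come from RefSeq (GRCm38.p6), are the 250 bases before the annotated start on the gene's own strand, and cover chr11:99438154-99438403 for Krt20, chr3:92485882-92486131 for Sprr1a and chr14:103513091-103513340 for Scel. Capitals mark every match, on either strand, to TGANTCA (the AP-1 motif), GGAATG (the TEAD motif), TATAAA (the TATA box) and GGGCGG (the GC box).
Krt20: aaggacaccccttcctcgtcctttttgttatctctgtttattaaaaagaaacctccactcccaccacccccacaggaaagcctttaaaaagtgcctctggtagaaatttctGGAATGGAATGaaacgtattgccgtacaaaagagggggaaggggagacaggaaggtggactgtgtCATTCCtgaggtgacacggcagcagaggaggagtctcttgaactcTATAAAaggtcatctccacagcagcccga
Sprr1a: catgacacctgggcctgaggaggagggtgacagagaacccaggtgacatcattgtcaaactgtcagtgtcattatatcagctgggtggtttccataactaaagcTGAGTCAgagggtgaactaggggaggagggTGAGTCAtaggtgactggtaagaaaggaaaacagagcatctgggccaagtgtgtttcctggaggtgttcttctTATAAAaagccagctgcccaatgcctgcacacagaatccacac
Scel: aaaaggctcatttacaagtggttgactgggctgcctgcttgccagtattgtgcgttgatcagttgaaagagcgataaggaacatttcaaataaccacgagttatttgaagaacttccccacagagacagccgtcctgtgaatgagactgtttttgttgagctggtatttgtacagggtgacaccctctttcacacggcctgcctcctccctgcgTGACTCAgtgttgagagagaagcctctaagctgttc

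Sprr1a held the AP-1 letters at 146 and 116 bases before its start and Scel held them 36 bases before its start. The windows of Krt8, Krt18, Krt20 and Krt23 held none. All starts here are those of RefSeq. The windows of Krt8, Krt18, Krt23 and Sprr1a reach into the GENCODE genes given above, that of Krt8 (chr15:102004343-102004592) the furthest. Matches and offsets therefore depend on the start used. Over 32851 mouse promoter windows of the same length, 6.75% held at least 1 match. Krt20 held GGAATG at 139, 134 and 74 bases before its start, the first and second sharing 1 base, and 12.6% of windows held that motif. TATAAA stood 29 bases before the start of Krt20 and 43 before that of Sprr1a, against 12.4% of windows. GGGCGG was in none of the 6 windows and in 32.7% of all windows. A match is a description of letters and not evidence of binding. The upstream windows of Krt80 and Ly6d were not analysed here.

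Krt8, the type II keratin of hepatocytes, was present in every library. In WT livers it stood at 254 and 189 CPM at 9 days, at 254 and 301 at 30 days, and at 266 and 257 under agonist. Arid1a KO livers had 236 and 335 CPM at 9 days, 358 and 604 at 30 days, and 682 and 480 under agonist. Arid1a/b DKO livers reached 935 and 1410 CPM, and tumours 1650 and 1820. Both tumours lay above both double-knockout livers, which lay above every other library, while Arid1a KO livers overlapped WT livers of the same time and treatment at 9 days only.

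Krt18, the type I partner of Krt8, was likewise highest in tumours and next in double-knockout livers. WT livers had 171 and 167 CPM at 9 days, 228 and 240 at 30 days, and 247 and 218 under agonist. Arid1a KO livers had 250 and 338 CPM at 9 days, 357 and 544 at 30 days, and 482 and 405 under agonist. Arid1a/b DKO livers had 1080 and 1410 CPM and tumours 1780 and 1610. All 6 Arid1a KO livers lay above all 6 WT livers, at 250 to 544 against 167 to 247 CPM, and the double-knockout livers and the tumours did not overlap either set. These sets pool times and treatments, and the share of all genes that separate them in this way was not computed.

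The pair moved in step. The ratio of Krt8 to Krt18 counts stayed between 0.865 and 1.48 over all 16 libraries, and their levels had a correlation of 0.98 on the log2(CPM + 0.5) scale, across libraries that share group and depth. Per kilobase of exon, Krt8 and Krt18 made up 92.5 to 99.4% of the summed level of the 53 keratin genes. The lowest share was in the first Arid1a KO liver at 9 days, which also had 43.2 CPM of Krt79 and 23.1 CPM of Krt4, type II keratins that its replicate held at 2.04 and 1.20 CPM.

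**Figure D1:**
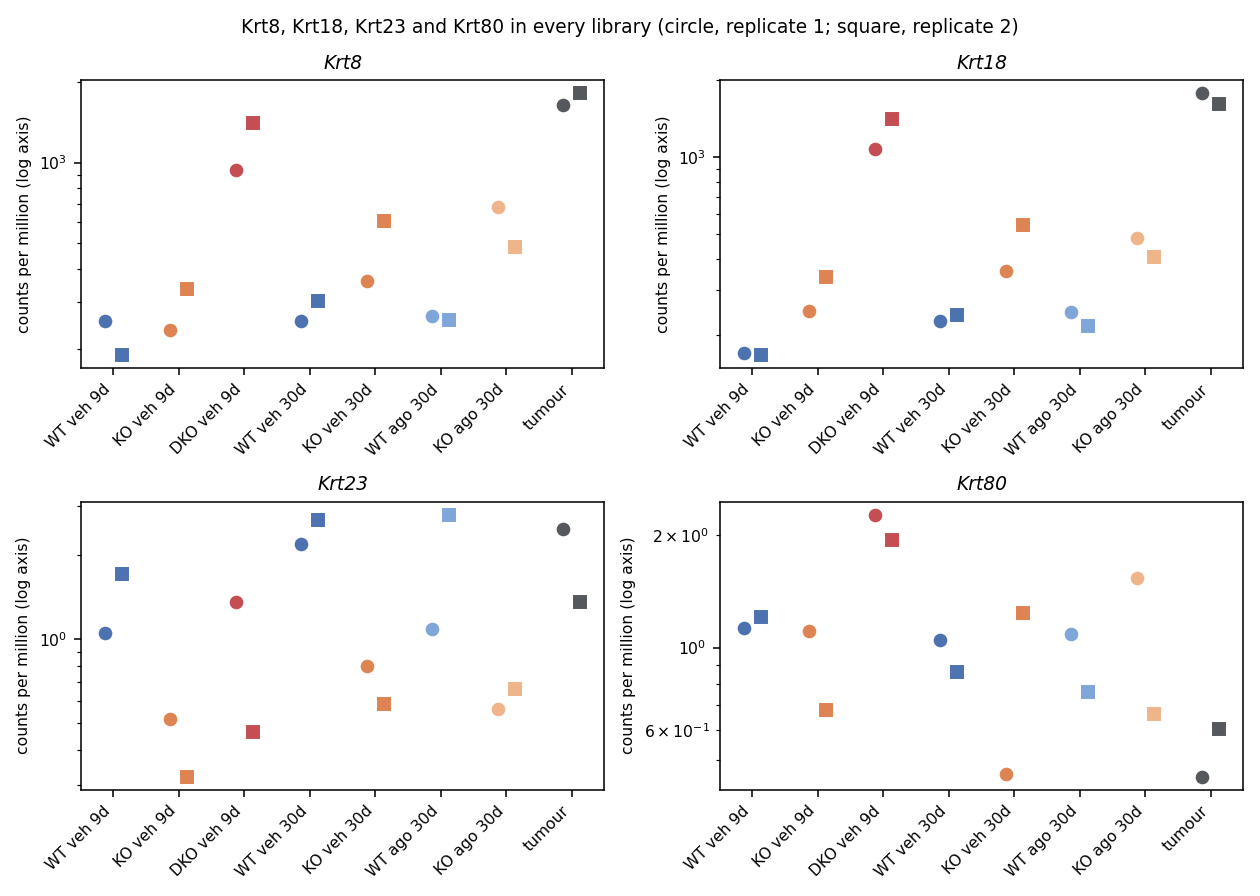
Levels of Krt8, Krt18, Krt23 and Krt80 in each of the 16 libraries, in CPM on a log axis, by group (circle, replicate 1; square, replicate 2; veh, vehicle; ago, agonist; d, days). Krt8 and Krt18 reach at least 935 CPM in both double-knockout livers and both tumours, whereas Krt23 and Krt80 stay between 0.321 and 2.8 CPM everywhere.

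Krt23, a type I keratin encoded beside Krt20, was scarce. WT livers had 1.05 and 1.72 CPM at 9 days, 2.20 and 2.68 at 30 days, and 1.09 and 2.80 under agonist. Arid1a KO livers had 0.518 and 0.321 CPM at 9 days, 0.799 and 0.583 at 30 days, and 0.562 and 0.662 under agonist. Double-knockout livers had 1.36 and 0.465 CPM and tumours 2.48 and 1.36. The 6 Arid1a KO livers, at 7 to 20 counts each, lay below all 6 WT livers without overlap. The double-knockout livers and the tumours reached into the WT range. The share of all genes that separate these WT and Arid1a KO livers in this way was not computed.

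Krt80, a type II keratin found in many epithelia, ranged from 0.451 to 2.27 CPM. WT livers had 0.759 to 1.21 CPM and Arid1a KO livers 0.457 to 1.54 CPM, so that these overlapped. The double-knockout livers, at 2.27 and 1.94 CPM, were above all other libraries, and the tumours, at 0.451 and 0.606 CPM, were among the lowest. These values rest on 4 to 121 counts per library.

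The hepatocyte pair was higher where both Arid1a and Arid1b were lost. No group with loss of Arid1b alone was analysed here, so joint loss and loss of Arid1b alone cannot be told apart. Of the 4 tested genes, 2 were called higher and none lower in Arid1a/b DKO against WT livers at 9 days, beside 26.4% of all genes called in either direction (edgeR quasi-likelihood test, Benjamini-Hochberg adjusted p under 0.05 over 17831 genes). Krt8 rose 5.30-fold (log2 fold change 2.40, SE 0.33, edgeR adjusted p = 0.000678). Krt18 rose 7.39-fold (2.88, SE 0.26, edgeR adjusted p = 7.2e-05). The log2 fold changes of Krt23 and Krt80 were -0.63 (SE 0.58, edgeR adjusted p = 0.445) and 0.85 (SE 0.51, edgeR adjusted p = 0.246).

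Against Arid1a KO livers at 9 days, the double-knockout livers again had 2 of the 4 genes called higher. Of all genes, 22.0% were called in either direction and 9.92% higher. Krt8 was 4.12-fold (log2 2.04, SE 0.33, edgeR adjusted p = 0.00181) and Krt18 4.25-fold higher (log2 2.09, SE 0.25, edgeR adjusted p = 0.000362). This comparison and the one against WT share the double-knockout libraries. Krt80 had a log2 fold change of 1.26 (SE 0.53, edgeR adjusted p = 0.110) and Krt23 of 1.15 (SE 0.64, edgeR adjusted p = 0.223).

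Loss of Arid1a alone gave no call among the 4 genes at any single time by edgeR. At 9 days 0 of 4 passed, beside 0.566% of all genes, although 2 of 4 had an unadjusted p under 0.05, and DESeq2 called 0. At 30 days 0 of 4 passed, beside 0.516% of all genes, with 3 of 4 at an unadjusted p under 0.05, and DESeq2 called 1. That gene was Krt18, with a log2 fold change of 0.94 (SE 0.24) and an adjusted p of 0.155 by edgeR against 0.0192 by DESeq2. Under agonist 0 of 4 passed, beside 4.95% of all genes, with 3 of 4 at an unadjusted p under 0.05, and DESeq2 called 2. There the log2 fold change of Krt8 was 1.16 (SE 0.32, edgeR adjusted p = 0.0630, DESeq2 adjusted p = 0.00935) and that of Krt18 0.94 (SE 0.24, edgeR adjusted p = 0.0535, DESeq2 adjusted p = 0.00635).

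The 3 comparisons of Arid1a KO with WT share no libraries. For Krt8 the log2 fold changes were 0.36 (SE 0.31) at 9 days, 0.80 (SE 0.32) at 30 days and 1.16 (SE 0.32) under agonist. For Krt18 they were 0.80, 0.94 and 0.94. For Krt23 they were -1.78, -1.87 and -1.70, with edgeR adjusted p of 0.334, 0.319 and 0.141. For Krt80 they were -0.41, -0.05 and 0.26, with no common sign.

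After these values were seen, the mean of the 3 differences was tested as 1 contrast over the same 14 liver libraries. It called 3 of the 4 genes, beside 11.0% of all genes. Krt18 was 1.86-fold higher in Arid1a KO livers (log2 0.89, SE 0.14, edgeR adjusted p = 0.00324) and Krt8 1.71-fold higher (log2 0.77, SE 0.18, edgeR adjusted p = 0.0222). Krt23 was lower, at 0.291 of the WT level (log2 -1.78, SE 0.37, edgeR adjusted p = 0.0116). Krt80 had a log2 difference of -0.07 (SE 0.32, edgeR adjusted p = 0.930). Krt18 kept its call with each of the 12 livers of the contrast left out in turn. Krt8 lost its call with any of 7 single livers left out (adjusted p 0.0521 to 0.0743), and Krt23 lost its call without the second WT agonist liver (log2 -1.48, adjusted p = 0.0510). Being chosen on these libraries, the contrast is not independent of them.

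**Figure D2:**
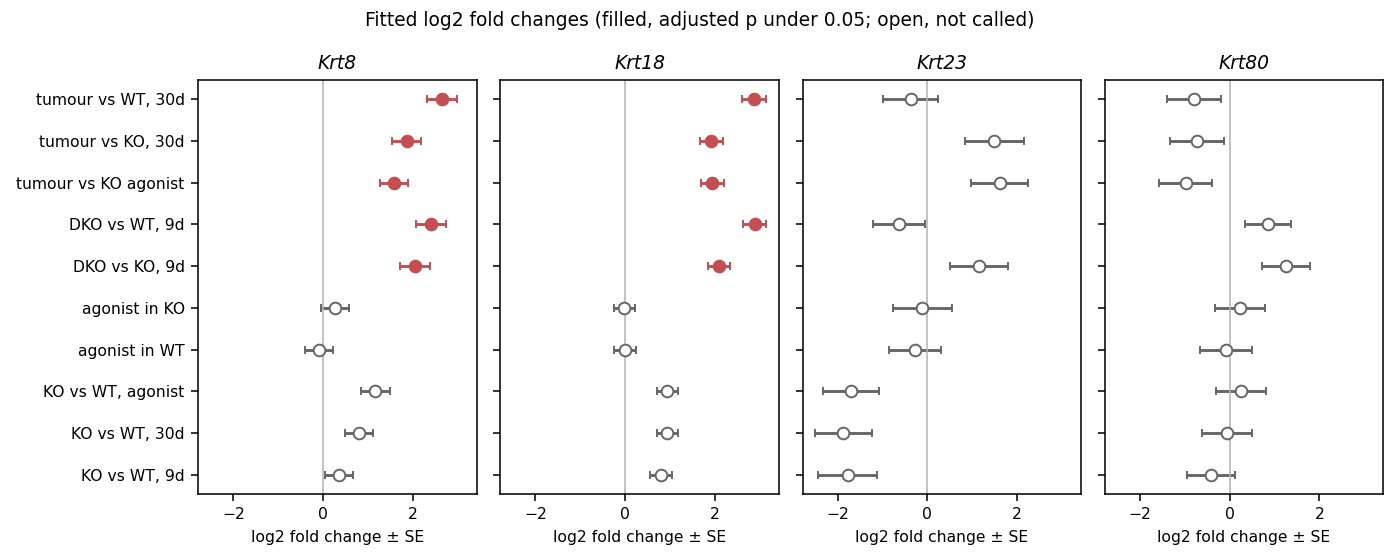
Log2 fold change with its standard error for Krt8, Krt18, Krt23 and Krt80 in 10 comparisons of groups (2 libraries each). Filled points passed an adjusted p of 0.05 over all genes; only Krt8 and Krt18 did, in the double-knockout and tumour comparisons.

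The agonist itself left these 4 genes uncalled. In WT livers 0 of 4 were called against vehicle, beside 0.0280% of all genes, and in Arid1a KO livers 0 of 4, beside 0.869%. In both comparisons 0 of 4 had an unadjusted p under 0.05 and DESeq2 called 0. For Krt18 the log2 differences were -0.01 (SE 0.24) in WT and -0.02 (SE 0.24) in Arid1a KO livers, and for Krt8 -0.09 (SE 0.31) and 0.27 (SE 0.31). The difference of the agonist effect between genotypes, tested as an interaction, also called 0 of 4 with edgeR and with DESeq2, beside 0.00561% of all genes, and 0 of 4 had an unadjusted p under 0.05.

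Tumours held the highest levels of both hepatocyte keratins. Against WT vehicle livers of 30 days, 2 of 4 genes were called higher. Of all 18193 genes tested with the tumours, 30.2% were called in either direction and 16.3% higher. Krt8 was 6.28-fold (log2 2.65, SE 0.33, edgeR adjusted p = 0.000259) and Krt18 7.26-fold higher (log2 2.86, SE 0.27, edgeR adjusted p = 5.81e-05). Against Arid1a KO vehicle livers of 30 days the count was again 2 of 4, with log2 fold changes of 1.86 for Krt8 and 1.92 for Krt18 (edgeR adjusted p = 0.00203 and 0.000477). There 25.1% of all genes were called in either direction and 12.9% higher.

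Against Arid1a KO agonist livers the tumours had 2 of 4 called higher, beside 20.1% of all genes called in either direction and 10.6% called higher. Krt18 was 3.84-fold higher (log2 1.94, SE 0.26, edgeR adjusted p = 0.000828) and Krt8 3-fold higher (log2 1.58, SE 0.32, edgeR adjusted p = 0.00622). Without the second Arid1a KO agonist liver, Krt8 was at 1.33 with an adjusted p of 0.0654. The 3 tumour comparisons share the tumour libraries. Krt23 had log2 fold changes of -0.37, 1.49 and 1.61 against the WT, Arid1a KO and Arid1a KO agonist livers, and none was called (edgeR adjusted p = 0.672, 0.118 and 0.0964).

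Krt20 was not detected in WT liver. It had 0 counts in all 6 WT libraries, 0 and 2 counts in the Arid1a KO livers at 9 days, and 0 and 1 count at 30 days. The 2 double-knockout livers held 2496 and 1931 counts, or 59.6 and 30.9 CPM. Arid1a KO livers under agonist held 11.3 and 7.41 CPM, from 161 and 224 counts, and the tumours 7.78 and 42.6 CPM, from 69 and 843 counts. The tumours thus spread across the range from the agonist livers to the double-knockout livers, and overlapped both.

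Against a floor of 3 counts over the WT group, group means of Krt20 were at least 662-fold higher in double-knockout livers, at least 272-fold higher in tumours and at least 104-fold higher in Arid1a KO agonist livers than in their WT counterparts. Arid1a KO agonist livers exceeded Arid1a KO vehicle livers 313-fold, with a counting interval of 55.9 to 12400 that rests on 1 count in vehicle and covers counting error only. The mean of the tumours was 2.69 times that of the Arid1a KO agonist livers; without the second tumour, the log2 ratio went from 1.43 to -0.31. Even at its highest, Krt20 was a small part of the keratin signal: 2.44 and 0.934% per kilobase in the double-knockout livers, 0.841 and 0.712% in Arid1a KO agonist livers, and 0.191 and 1.06% in tumours.

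The genes beside Krt20 had no such levels. Krt12, 6144 bases away, had a mean of 0.0319 CPM in double-knockout livers and none in tumours. Krt10 stayed at 1.79 to 3.29 CPM in all 8 groups, and Krt23, on the other side, at 0.419 to 2.44 CPM.

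**Figure D3:**
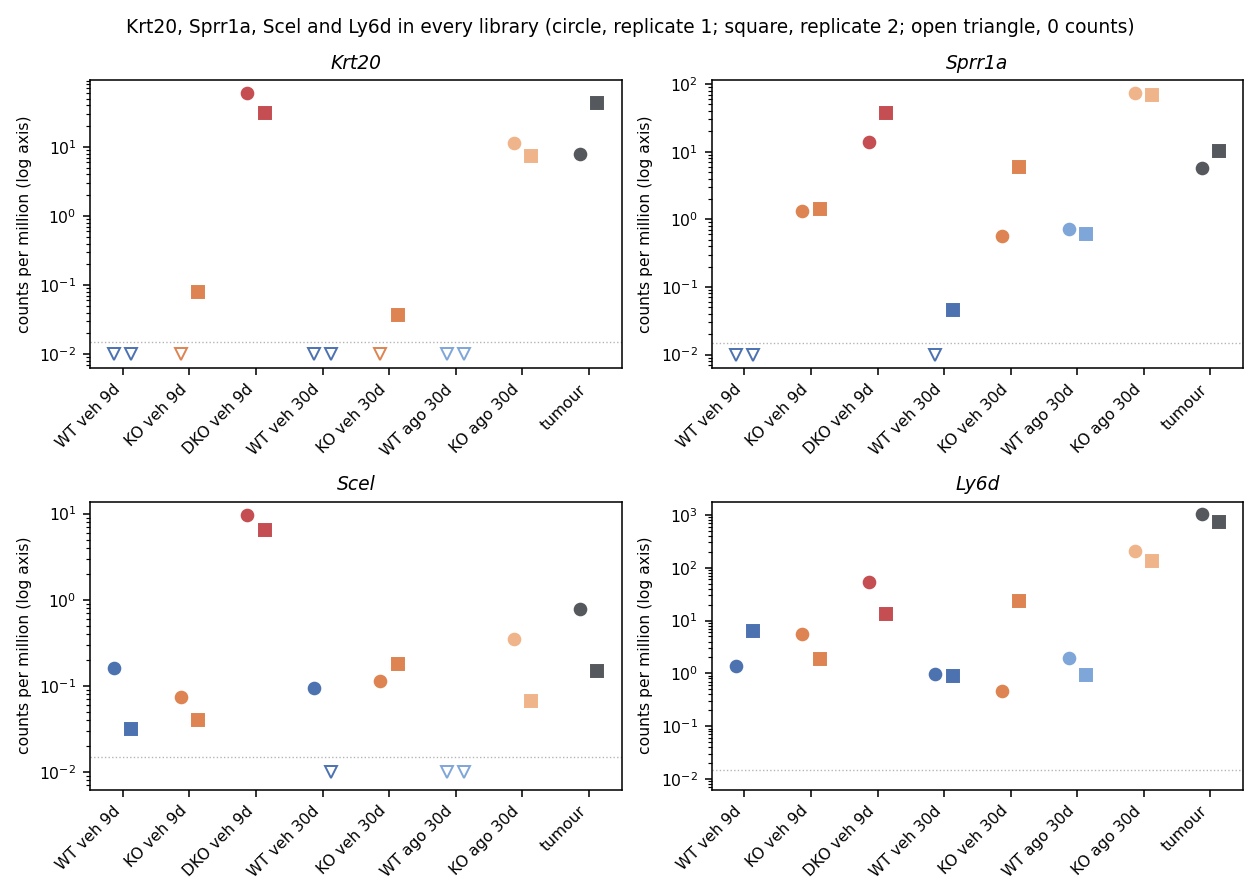
Levels of Krt20, Sprr1a, Scel and Ly6d in each of the 16 libraries, in CPM on a log axis (circle, replicate 1; square, replicate 2; open triangles under the dotted line, 0 counts, drawn at an arbitrary height). Krt20 is at 0 in all 6 WT libraries, and the highest group is the double knockout for Krt20 and Scel, the Arid1a KO agonist livers for Sprr1a and the tumours for Ly6d.

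Sprr1a, a small proline-rich envelope precursor, was detected in each Arid1a KO library. WT vehicle livers held 0, 0, 0 and 1 count. Arid1a KO livers held 18 and 35 counts (1.33 and 1.40 CPM) at 9 days and 5 and 161 counts (0.571 and 5.87 CPM) at 30 days. Double-knockout livers had 14 and 37.9 CPM, and tumours 5.75 and 10.4 CPM. All these groups lay above the WT vehicle livers, and the tumours overlapped the Arid1a KO livers of 30 days.

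Its highest levels were under agonist in Arid1a KO livers, at 73.1 and 68.2 CPM. WT livers under agonist had 0.725 and 0.599 CPM, from 6 and 15 counts. The group mean was 21.9 times that of Arid1a KO vehicle livers and 107 times that of WT agonist livers, without overlap in either case. In WT livers agonist and vehicle differed 20.5-fold, with a counting interval of 3.29 to 847, since the vehicle group held 1 count. Double-knockout livers were at least 380-fold and Arid1a KO livers at least 20-fold above WT at 9 days, and tumours stood at 0.114 of the Arid1a KO agonist mean.

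The Sprr genes around Sprr1a were at or near 0. Sprr3, Sprr2k and Sprr4 had 0 counts in every library, and Sprr1b reached a group mean of 0.0351 CPM at most. Ivl, the envelope scaffold gene involucrin, reached 0.205 CPM in Arid1a KO agonist livers.

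Scel, encoding the envelope precursor sciellin, was near absent outside the double-knockout livers, which held 408 and 400 counts, or 9.74 and 6.41 CPM. Every other library held 0 to 7 counts. Against WT livers at 9 days the ratio was 113, with a counting interval of 38.6 to 551. Arid1a KO agonist livers had 0.351 and 0.0662 CPM and tumours 0.789 and 0.151 CPM, both overlapping other groups. Unlike Krt20, Sprr1a and Ly6d, Scel was thus not at a clearly raised level in Arid1a KO livers under agonist, where it rested on 5 and 2 counts.

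Ly6d, encoding a glycolipid-anchored protein of the Ly6 family known from keratinocytes and early B cells, was detected in every library. WT livers had 1.37 and 6.20 CPM at 9 days, 0.958 and 0.908 at 30 days, and 1.93 and 0.919 under agonist. Arid1a KO livers had 5.63 and 1.84 CPM at 9 days and a split pair, 0.457 and 23.2, at 30 days. Double-knockout livers had 53.8 and 13.4 CPM, Arid1a KO agonist livers 209 and 135, and tumours 1020 and 744. Both tumours exceeded both Arid1a KO agonist livers, which exceeded the remaining 12 libraries.

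The group mean of Ly6d in tumours was 943 times that of WT livers of 30 days and 5.12 times that of Arid1a KO agonist livers. Arid1a KO agonist livers were 121 times WT agonist livers and 14.6 times Arid1a KO vehicle livers. Double-knockout livers were 8.88 times WT livers. Arid1a KO livers of 30 days were 12.7 times WT, but this came from 1 library: without the second Arid1a KO liver the log2 ratio went from 3.66 to -1.09. That library also held the higher values of the pair for Krt8, Krt18, Sprr1a and Scel. Its bile duct marker sum was 324 CPM against 157 in its replicate, of which Spp1 gave 264 and 85.5 CPM. The part of those markers in the Ly6d value was not tested.

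Per kilobase of exon, Ly6d in the tumours (1360 and 1000 CPM per kilobase) was at the level of Krt8 (843 and 931) and Krt18 (1240 and 1120). In WT livers at 30 days Ly6d stood at 1.29 and 1.22 CPM per kilobase, beside 159 and 167 for Krt18. Of its genomic neighbours, Lynx1 had 30.5 and 10.2 CPM in tumours against 0.639 to 1.45 in WT livers, whereas Ly6k had 73.6 CPM in the second tumour and 0.113 in the first. Slurp2 and Lypd2 had 0 counts.

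The 4 chosen genes therefore peaked in different groups. Krt20 and Scel were highest in the double-knockout livers, Sprr1a in Arid1a KO agonist livers and Ly6d in tumours. Relative to its own highest group mean, Arid1a KO agonist liver held 20.7% for Krt20, 2.58% for Scel and 19.6% for Ly6d. In the double-knockout livers the replicates were ordered oppositely for Ly6d (53.8 and 13.4 CPM) and Sprr1a (14 and 37.9 CPM). Over the 16 libraries, correlations on the log2(CPM + 0.5) scale were 0.82 for Krt20 with Sprr1a, 0.79 for Krt20 with Ly6d, 0.72 for Krt20 with Scel and 0.31 for Scel with Ly6d. Krt20 and Krt8 had 0.87. These coefficients are descriptions across libraries that share groups and differ in depth.

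**Figure D4:**
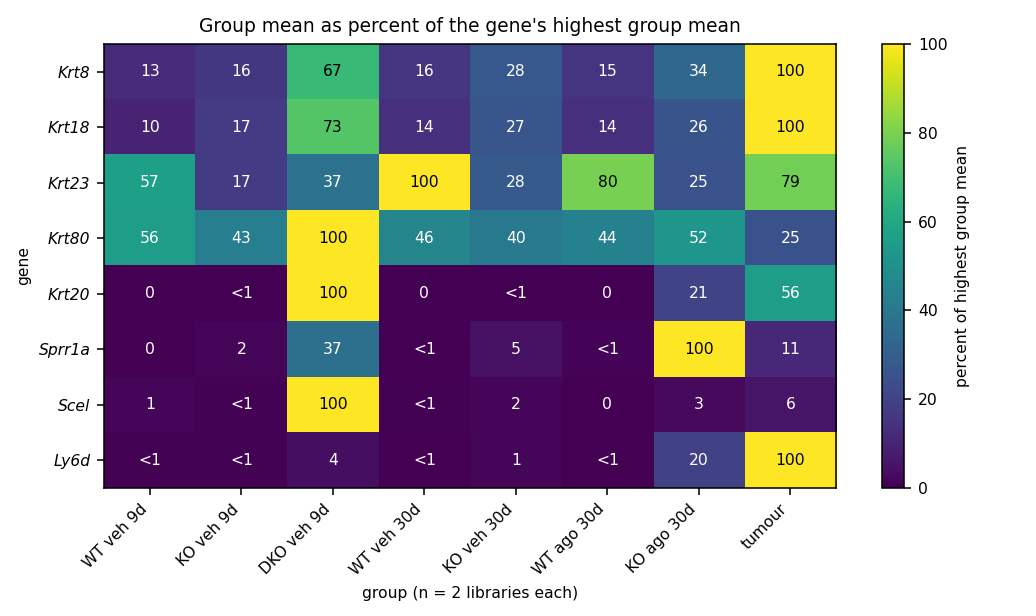
Mean level of each of the 8 genes in each group (n = 2 libraries) as a percent of that gene's highest group mean, from 0 (dark) to 100 (bright). The brightest cell is the tumour for Krt8, Krt18 and Ly6d, the double-knockout liver for Krt80, Krt20 and Scel, the Arid1a KO agonist liver for Sprr1a and the WT vehicle liver of 30 days for Krt23.

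Few other keratins passed the filter on low counts. Of 25 other type I keratins 3 were tested in the livers and none was called in double-knockout against WT livers (median log2 0.68, 0.01 over all genes, of which 26.4% were called). Of 24 other type II keratins 4 were tested (median -0.91) and only Krt79 was called. It was lower by a log2 fold change of -4.28 (SE 1.12, edgeR adjusted p = 0.0184), at 0.167 and 0.176 against 2.57 and 4.26 CPM. WT vehicle livers of 30 days held 0.0958 and 0.136 CPM of Krt79, so the double-knockout levels were within the spread of WT livers over times. Krt222 was called higher in Arid1a KO agonist against WT agonist livers (log2 5.78, SE 0.94, edgeR adjusted p = 0.00957), at 1.19 and 2.51 against 0 and 0.0400 CPM. The remaining livers held 0.549 CPM or less, so Krt222 passed the filter mainly through the group where it was called higher.

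In tumours against WT livers of 30 days, Krt222 and Krt25 were called higher among 5 type I keratins tested (median 4.51, 0.05 over all genes) and Krt5, the basal keratinocyte keratin, among 4 type II (median 3.03), beside 30.2% of all genes called. Krt5 stood at 1.58 and 11.5 CPM in tumours and 0 in both WT livers. Its partner Krt14 was at 3.95 CPM in the first tumour and 0.101 in the second, the opposite order. Krt25 rested on 0.676 and 0.555 CPM, with 0.074 or less in every liver. Only 3 type I keratins were tested in the livers. Krt14 and Krt25 passed the low-count filter only with the tumours included, so the type I count and median partly reflect that filter.

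Most other cornified envelope genes had too few counts to test. Of 38 found, 8 were tested and 12 had 0 counts in every library. In double-knockout against WT livers 2 were called higher and 1 lower (median log2 1.42, 0.01 over all genes), beside 12.6% of all genes called higher and 13.8% lower. Anxa1, annexin A1, rose (log2 2.7, SE 0.38, edgeR adjusted p = 0.000751), from 5.31 and 7.83 to 58.8 and 26.9 CPM, and the plakin Evpl, envoplakin, rose (log2 2.05, SE 0.52, edgeR adjusted p = 0.0163). Tgm1, the main cross-linking transglutaminase of the envelope, fell (log2 -2.87, SE 0.30, edgeR adjusted p = 0.000149), from 46.1 and 62.8 to 6.95 and 7.85 CPM.

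Tgm1 was also called lower in Arid1a KO against WT livers at 9 days (log2 -1.86, SE 0.29, edgeR adjusted p = 0.0223) and under agonist (log2 -1.66, SE 0.30, edgeR adjusted p = 0.0142), and not called at 30 days under vehicle (log2 -0.97, SE 0.30, edgeR adjusted p = 0.248). Under agonist 0 of the 8 were called higher and 1 lower (median 0.90, -0.01 over all genes), beside 3.05% of all genes called higher and 1.91% lower. In tumours against WT livers 4 were called higher and 0 lower (median 1.83, 0.05 over all genes), beside 16.3% of all genes called higher and 13.8% lower: Cstb, Tgm1, Evpl and Ppl. Tgm1 stood there at 60.1 and 195 CPM, against 15.4 and 17.7 in WT vehicle livers of 30 days (log2 2.95, SE 0.46, edgeR adjusted p = 0.000916). WT livers at 9 days held 46.1 and 62.8 CPM of Tgm1, so the first tumour was within the WT levels of that time. Ppl, periplakin, rose to 278 and 593 against 24.2 and 32.5 CPM (log2 3.94, SE 0.74, edgeR adjusted p = 0.00233). Flg and Krtdap, markers of terminally differentiating epidermis, had 0 counts in every library.

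Genes that anchor or partner keratin filaments were mixed. For this list and those that follow, the medians over all genes are those just given for the same comparison. Of 9 desmosome genes tested in double-knockout against WT livers 4 were called higher and 1 lower (median -0.25), beside 12.6% and 13.8% of all genes. Pkp2 rose (log2 1.04, SE 0.30, edgeR adjusted p = 0.0271) and Dsc2, a desmosomal cadherin, fell (log2 -1.08, SE 0.30, edgeR adjusted p = 0.0243). In tumours against WT livers Pkp3 and Pkp2 were called higher and Perp lower of 10 tested (median -0.12), beside 16.3% and 13.8% of all genes, Perp going from 119 and 117 to 11.5 and 2.47 CPM.

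Among other intermediate filaments and linkers 6 of 13 were called higher and none lower in double-knockout livers (median 0.69), beside 12.6% and 13.8% of all genes. These included the lamin gene Lmna (log2 2.52, SE 0.26, edgeR adjusted p = 0.000143), Vim, the filament of mesenchymal cells (2.31, SE 0.37, edgeR adjusted p = 0.00152), and Nefm, a neurofilament subunit. Nefm, like Krt20, was at 0 counts in all 6 WT livers, at 27.9 and 29.3 CPM in double-knockout livers and at 5.19 and 2.32 CPM in Arid1a KO agonist livers, but at 4.73 and 0 CPM in the tumours. In tumours 3 of 14 were called higher and 0 lower (median 0.65), close to the 16.3% of all genes called higher: Lmna, Plec and Nefm.

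Of 10 keratin partners and Mallory-Denk body proteins, the constituents of keratin aggregates in injured hepatocytes, 1 was called higher and 1 lower in double-knockout livers (median 0.32), against 26.4% of all genes called in either direction: Sqstm1, the p62 adaptor (log2 1.48, SE 0.31, edgeR adjusted p = 0.00704), and the small heat shock gene Hspb1 (log2 -1.27, SE 0.29, edgeR adjusted p = 0.00957). Hspb1 was also called lower in Arid1a KO against WT livers at 9 days (log2 -2.48, SE 0.31, edgeR adjusted p = 0.00753) and at 30 days under vehicle (log2 -2.37, SE 0.31, edgeR adjusted p = 0.00975). It was called higher in double-knockout than in Arid1a KO livers (log2 1.20, SE 0.30, edgeR adjusted p = 0.0168). In tumours 5 were called higher and 0 lower (median 1.32), beside 16.3% and 13.8% of all genes, among them Ywhaz, Tgm2 and Sqstm1.

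Ly6 relatives other than Ly6d were tested in 14 cases in the livers. In double-knockout against WT livers 3 were called higher, Ly6c2, Plaur and Gpihbp1, and Cd59a lower (median 0.46), a share near the 26.4% of all genes called. In Arid1a KO against WT agonist livers 3 were called higher and 0 lower (median 0.90), beside 4.95% of all genes called: Ly6c2, Ly6a and Ly6e. In tumours 7 of 15 were called higher and 1 lower (median 1.18), beside 16.3% and 13.8% of all genes. Ly6e stood at 407 and 899 CPM in tumours, where Ly6d had 1020 and 744 CPM, and at 185 to 389 CPM in the 6 WT livers. Lypd8 had 6.42 and 3.28 CPM and Plaur, the urokinase receptor, 8.45 and 29.2 CPM in tumours. Lypd8, at 0.16 CPM or less in every liver, passed the filter only with the tumours included.

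Of 12 tested transcription factors of squamous and other epithelia, 2 were called higher and 2 lower in double-knockout livers (median 1.03), beside 12.6% and 13.8% of all genes. Klf4, a factor of barrier epithelia, rose (log2 2.61, SE 0.51, edgeR adjusted p = 0.00483), as did Sox4 (log2 2.84, SE 0.38, edgeR adjusted p = 0.000592), whereas Elf5 and Zfp750 fell. Under agonist Sox4 and Elf3 were called higher in Arid1a KO than in WT livers and none lower (median 0.72), beside 4.95% of all genes called, Sox4 reaching 39.9 and 43.9 against 1.45 and 1.20 CPM. In tumours 6 of 16 were called higher and 0 lower (median 2.22), beside 16.3% and 13.8% of all genes. Elf3 led, at 11.9 and 30.4 against 0.767 and 0.953 CPM. The tested genes beyond the 12 of the livers passed the filter only with the tumours included. Among those calls were Grhl3 and Barx2, the latter at 1.47 and 5.3 CPM in tumours and 0.31 or less in livers. Trp63, the master factor of squamous epithelium, was at 2.93 CPM in the first tumour and at 0 in the second, and at 0.0958 CPM or less in all livers.

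Among 10 AP-1 genes, 2 were called higher and 0 lower in double-knockout livers (median 0.93), beside 12.6% and 13.8% of all genes: Atf3 (log2 2.51, SE 0.52, edgeR adjusted p = 0.00667) and Fosb (log2 2.69, SE 0.71, edgeR adjusted p = 0.0189). In Arid1a KO against WT agonist livers 1 was called, Atf3 (log2 4.02, SE 0.63, edgeR adjusted p = 0.00794; list median 0.64), beside 4.95% of all genes called. In tumours 4 were called higher and 0 lower (median 1.06), beside 16.3% and 13.8% of all genes: Atf3, Fosb, Fosl2 and Maff.

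Markers of hepatocytes and of other cell types moved with some of these results. The 15 hepatocyte markers summed to 25500 to 26700 CPM in double-knockout livers, 29700 to 33000 in Arid1a KO agonist livers and 30300 to 31900 in tumours, all below the 34400 to 59100 of WT livers. In double-knockout against WT livers 8 of the 15 were called lower and 0 higher (median log2 -1.01, 0.01 over all genes), beside 13.8% and 12.6% of all genes. Macrophage markers (14 genes) summed to 1940 to 3430 CPM in double-knockout livers against 825 to 1550 in WT livers at 9 days, and to 410 to 556 in tumours against 205 to 607 in WT livers at 30 days. The part of these shifts in the keratin values was not tested. Stratified squamous markers (12 genes) summed to 3.87 to 5.22 CPM in the double-knockout livers, 11.7 to 11.8 in Arid1a KO agonist livers and 14.9 to 15.8 in tumours, against 2.97 to 12.9 in WT livers. The top of that WT range came mostly from Krt4, at 10.9 CPM in the first WT agonist liver, so the sum does not describe the other squamous markers. In double-knockout against WT livers 4 were tested and none was called, beside 26.4% of all genes. Only Krt5 had a positive log2 fold change there (6.53, SE 2.33, edgeR adjusted p = 0.0816). The part of squamous cells in the Krt20, Scel and Sprr1a values was not tested. Gut epithelial markers (16 genes) summed to 180 to 213 CPM in double-knockout livers and 341 to 456 in tumours, against 52.8 to 98.3 in WT livers and 82.3 to 94.5 in Arid1a KO agonist livers.

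In double-knockout livers most of the gut sum was Fabp2, which WT livers also held (137 and 197 CPM against 78.1 and 46.5), while the gut factors Cdx1 and Cdx2 were at 0.406 CPM or less. In tumours the sum also held Muc13 (70.4 and 168 CPM) and Vil1 (26.7 and 61.8 CPM), with Muc2 at 0 and 0.0505 CPM. The part of gut-type cells in the Krt20 values was not tested.

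Bile duct markers (14 genes), whose cells also express Krt8 and Krt18, summed to 201 to 490 CPM in double-knockout livers, 279 to 395 in Arid1a KO agonist livers and 294 to 325 in tumours, against 76.8 to 108 in WT livers. Spp1 made up most of that in double-knockout livers (402 and 140 CPM) and in Arid1a KO agonist livers (335 and 221 CPM). It stood at 30.4 to 45.2 CPM in WT livers. Of 13 bile duct markers tested, Spp1 alone was called in Arid1a KO against WT agonist livers (list median log2 0.68), beside 4.95% of all genes. The duct keratins Krt7 and Krt19 were at 7.81 CPM or less in every library, at most 0.779% of the keratin signal per kilobase for Krt19 and 0.156% for Krt7. Stellate and fibroblast markers (13 genes) summed to 1190 to 2490 CPM in the double-knockout livers, where Scel was highest, against 230 to 998 in all other groups. B-lineage markers (10 genes) summed to 3.94 to 17.6 CPM in the tumours, where Ly6d was highest, against 13 to 54 in WT livers. The part of these cells in the keratin and Scel values was not tested.

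Genes most like each member over the 16 libraries were taken from 12566 named genes with a mean of at least 1 CPM, by Pearson correlation of log2(CPM + 0.5), as a description of libraries that share groups. Krt20 was most like Hid1 (0.980), Clcn5, Klf6, Tpd52 and Ccdc120. Hid1, a gene of dense-core vesicle sorting, had group means of 2.01 to 2.64 CPM in all WT groups and in Arid1a KO vehicle livers, 34.2 in double-knockout livers, 11.1 in Arid1a KO agonist livers and 25.4 in tumours.

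Sprr1a was most like Arl6ip5 (0.958), Pgd, Nrg1, Srxn1 and Dnajc10. Srxn1, sulfiredoxin, and Pgd, an enzyme of the pentose phosphate pathway, had 903 and 343 CPM in Arid1a KO agonist livers against 80.4 and 68.6 CPM in WT agonist livers. Scel was most like Adcy5 (0.965), Cdk20, Acta2, Anxa1 and Dbn1. Acta2, smooth muscle actin of activated stellate cells, had a mean of 62.9 CPM in double-knockout livers and 1.14 to 4.46 CPM in the other groups, and Anxa1 is itself an envelope gene.

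Ly6d was most like Spire2 (0.967), Vat1, Tceal8, Serpinb6a and Elovl7. Elovl7, a fatty acid elongase, had 99.6 CPM in tumours, 32.4 in Arid1a KO agonist livers and 17.5 in double-knockout livers, the same order as Ly6d. Krt8 and Krt18 shared Wfdc3 (0.973 and 0.964) and Large2 (0.946 and 0.965) among their 5 nearest genes. Wfdc3 had 108 CPM in tumours, 29.1 in double-knockout livers and 0.0400 to 0.141 in WT livers.

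Krt23 was most like Card10 (0.899), Wnk4, Fbxo44, Steap2 and Cd276. Cd276, an immune checkpoint ligand, was at 6.70 to 10.9 CPM in WT livers, 0.445 to 1.05 in Arid1a KO livers and 3.82 in double-knockout livers, the order seen for Krt23. Krt80 was most like Tulp3 (0.899), C1qtnf1, Efcc1, Tmod3 and Kctd12b, each highest in double-knockout livers and lowest in tumours.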

How the data were processed

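RNA was prepared with TruSeq polyA libraries, per the labels' protocols. The submitters' processing notes name fastp, STAR 2.7.3 and featureCounts with GRCm38.p6 (mm10); they give no counting options. The deposited raw count table holds whole reads per gene for 55291 genes; the authors' normalized table was not used. The 8 genes and all gene lists were chosen with earlier results of these data known. From each list, called genes were named, up to 4 per list and comparison with the smallest p, plus genes whose levels a sentence turns on, chosen after their values were seen; 1 gene that the rule named is not reported here. Counts were filtered (filterByExpr), TMM-scaled and fitted in edgeR 4.0.16 (R 4.3.3) with 1 coefficient per group: 14 liver libraries with 7 residual degrees of freedom, or 16 libraries with 8 for tumours. P-values rest on the spread between replicates pooled over all groups of a fit and moderated across genes, not on the compared groups alone. DESeq2 1.42.0, RLE scaling, no filter, a replicate block, other sample sets and single-library omissions were alternatives. A gene could pass the filter through the group where it was high alone, and list counts with the tumours included hold such genes. Scripts were tested on simulated data. Folds against 0 counts use a floor of 3 counts per group, and intervals are exact binomial (95%).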

Additional observations from a re-analysis of the deposited data

How the results depend on the processing

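The count of called genes among Krt8, Krt18, Krt23 and Krt80 kept its value in the double-knockout comparisons, the 9-day Arid1a KO comparison, both agonist comparisons, the interaction and the tumour comparison against WT livers under every alternative run. In Arid1a KO against WT at 30 days the count went from 0 to 1 with DESeq2, and likewise without the low-count filter. Under agonist it went from 0 to 2 with DESeq2 and with no filter, and to 1 with a replicate block; the cause was not tested. Leaving out single libraries gave 1 to 2 calls in tumours against Arid1a KO agonist livers and 1 to 3 for the mean Arid1a KO effect. The main fit did not pair samples by replicate number. Deviations of same-numbered samples correlated between -0.11 and 0.36 over 28 pairs of groups, and between 0.17 and 0.36 in the comparisons among 30-day livers. Replicate 1 was also the shallower library in all 8 groups, so a replicate set shared by the 30-day livers was not excluded. The replicate block changed no other count. With Arid1a KO livers of 9 days as control the tumours had 3 calls in place of 2, the added one being Krt23 (log2 2.20, adjusted p = 0.0328 by edgeR). Of 172 values of Krt20, Sprr1a, Scel and Ly6d under RLE scaling or with a library left out, 70 moved by more than the replicate SD. Krt23 and Krt80 rest on 4 to 121 counts per library, which limits the size of change that could pass the test.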
